A study of Mus musculus with 4 samples.

Results

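Interferon-stimulated genes and the immunity-related GTPases, a set of 49 genes listed by symbol, were followed in induced regulatory T cells (induced Treg cells) labelled wild-type (WT) or MSC KO. Of the 49 genes, 48 had a row of their own in both deposited tables, and 34 averaged 1 FPKM or more across the 4 libraries and entered the test, among 10587 genes tested in all. FPKM are fragment counts scaled to transcript length and library size, so levels can be compared between genes. The set was divided by role into 10 immunity GTPases, 3 IFITM genes, 3 Ifi200 genes, 8 factors and sensors of the type I interferon response, and 25 type I effectors. Tested were 9, 3, 1, 8 and 13 of them.

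The cells came from C57BL/6 mice, as naive T cells sorted and then cultured for 3 days under 1 µg/ml of plate-bound anti-CD3/CD28 with 2 ng/ml TGF-beta. There were 2 WT and 2 MSC KO libraries, where MSC stands for musculin, the product of Msc and a transcription factor of the basic helix-loop-helix class. No interferon was added according to the labels, and all 4 libraries shared the same culture. The kind of Msc allele is not described in the labels, nor is it said whether the replicates were separate mice or cultures, so p-values speak only for these libraries. Each table pairs 1 WT with 1 MSC KO library of the same number, and each difference of MSC KO from WT below is taken within a table. Comparisons between libraries of different tables (group overlap, gaps between libraries of 1 label, and fits with no block or with a library left out) also rest on how the tables were normalized, which is not stated.

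Interferons act through receptors, Janus kinases and STAT proteins. Type I interferons act through a complex that includes IRF9 and binds the interferon-stimulated response element, whereas interferon-gamma acts mainly at the gamma-activated site and, in a second wave, through IRF1. The immunity GTPases are the best-known products of the interferon-gamma arm: guanylate-binding proteins (GBPs) and immunity-related GTPases (IRGs) attack the vacuoles in which intracellular pathogens live. Activated T cells make interferon-gamma and respond to it.

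Msc itself went against the labels. Its listed level was 0.0243 and 0.0178 FPKM in WT 1 and WT 2, against 0.331 and 0.939 FPKM for the libraries labelled MSC KO 1 and MSC KO 2. From an approximate depth, these values stand for about 1.1, 1.2, 16.4 and 57.1 fragments. Every direction below is therefore that of the libraries as labelled. Depth, estimated from the steps between low values, was about 27100000 to 37300000 fragments per library. The T cell markers were present (7 of 8 had a row, summed level 1220 to 1340 FPKM). Of 6 induced Treg genes, with a summed level of 514 and 543 FPKM in WT against 593 and 519 FPKM in MSC KO-labelled cells, 4 were lower in both tables (Foxp3, Ikzf2, Lrrc32 and Itgae), Ctla4 was higher, and Il2ra had opposite signs. Foxp3, which defines Treg cells, was at 62.8 and 66 FPKM in WT against 2.97 and 7.05 FPKM, and Ctla4 at 112 and 120 FPKM against 217 and 188 FPKM.

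Promoter windows are shown for 6 members. The listed genes are interferon-stimulated, so matches to the sites through which interferons act come with the choice of the list. Gbp5 and Gbp2 were among the members that lay furthest below WT, Irgm1, Igtp and Irgm2 are IRGs that lay below WT by different amounts, and Isg15 lay above WT. Each is the RefSeq sequence of the 250 bases before the transcription start (GRCm38.p6), written 5′ to 3′ on the strand of the gene. Capitals mark matches to the core of the interferon-stimulated response element, here a GAAA pair (GAAA, any 2 bases, GAAA, or TTTC, any 2 bases, TTTC, for the other strand), and to TTCNNNGAA, the gamma-activated site, which reads the same on both strands.
Gbp5 (chr3:142496684-142496933, plus strand): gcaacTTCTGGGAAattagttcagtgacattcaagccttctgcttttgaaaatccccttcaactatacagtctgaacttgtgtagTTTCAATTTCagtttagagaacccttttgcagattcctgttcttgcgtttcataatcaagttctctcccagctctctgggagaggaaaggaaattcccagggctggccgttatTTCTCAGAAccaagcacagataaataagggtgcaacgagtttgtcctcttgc
Gbp2 (chr3:142620413-142620662, plus strand): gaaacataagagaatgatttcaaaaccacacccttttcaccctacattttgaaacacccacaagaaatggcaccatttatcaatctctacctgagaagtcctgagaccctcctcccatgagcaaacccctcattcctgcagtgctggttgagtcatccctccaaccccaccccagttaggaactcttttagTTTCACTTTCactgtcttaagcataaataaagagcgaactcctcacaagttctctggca
Irgm1 (chr11:48871421-48871670, minus strand): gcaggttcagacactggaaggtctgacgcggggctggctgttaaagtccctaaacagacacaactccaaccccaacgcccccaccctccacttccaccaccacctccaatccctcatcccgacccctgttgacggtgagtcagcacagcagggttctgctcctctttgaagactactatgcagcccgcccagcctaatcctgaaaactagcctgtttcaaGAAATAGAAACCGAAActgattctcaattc
Igtp (chr11:58199306-58199555, plus strand): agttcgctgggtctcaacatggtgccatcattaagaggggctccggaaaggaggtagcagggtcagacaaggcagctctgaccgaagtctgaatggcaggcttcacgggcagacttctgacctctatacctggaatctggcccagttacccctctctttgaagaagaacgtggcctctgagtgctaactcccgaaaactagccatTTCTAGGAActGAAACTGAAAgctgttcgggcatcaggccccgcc
Irgm2 (chr11:58214727-58214976, plus strand): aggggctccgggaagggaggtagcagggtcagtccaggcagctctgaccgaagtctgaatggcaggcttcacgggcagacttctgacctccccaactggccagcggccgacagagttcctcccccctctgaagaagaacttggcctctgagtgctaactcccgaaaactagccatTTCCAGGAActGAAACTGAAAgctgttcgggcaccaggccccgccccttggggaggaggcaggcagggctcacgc
Isg15 (chr4:156200819-156201068, minus strand): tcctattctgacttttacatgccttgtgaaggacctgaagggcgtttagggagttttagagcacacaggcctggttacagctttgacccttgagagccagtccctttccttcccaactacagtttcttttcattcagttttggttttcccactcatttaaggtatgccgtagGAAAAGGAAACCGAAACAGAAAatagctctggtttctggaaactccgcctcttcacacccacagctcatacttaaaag

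In Igtp and Irgm2, neighbours on chromosome 11, a TTCNNNGAA match ended 2 bases before a GAAA pair. Further from the start, at 181 bases before it in Igtp and 215 in Irgm2, began the longest run of bases that the windows share, 55 identical bases. Overlapping GAAA pairs stood in Irgm1 (2 matches) and Isg15 (3 matches), and Gbp5 held 2 TTCNNNGAA matches. RefSeq windows from 250 bases before to 50 after the start were on hand for 27 of the 34 tested members, and 16 of these held a GAAA pair (59.3%) against 3.73% of all tested genes with a window. TTCNNNGAA stood in 12 of the 27 (44.4%) against 8.39%. Both shares describe the listed genes, chosen as interferon-stimulated, and not these libraries. All 6 tested immunity GTPases with a window held a GAAA pair, and so did the 3 members that lay above WT in both tables. The motif was thus found in members of either direction, and a match of letters is no evidence of binding in these cells.

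Most of the tested members were lower in the MSC KO-labelled libraries. Lower in both tables were 24 of the 34, where 37.5% of all tested genes were, and higher in both were 3, where 31.2% of all tested genes were. The other 7 differed in direction between the tables. The median difference of the 34 was -0.43 on the log2(FPKM + 1) scale (-0.44 and -0.5 in the first and second tables), and that of all tested genes was -0.02. In all 24 lower members both MSC KO-labelled libraries lay below both WT libraries, as in 32.5% of all tested genes. The filter could have created such a difference in 1 tested member, Ifi203, whose MSC KO-labelled mean was under 1 FPKM. Without the filter, 33 of the 48 members with a row were lower in both tables and 7 higher, and the share over all genes was not computed. Of the 14 members so added, 9 were lower and 4 higher. A mean below 0.1 FPKM was that of 8 of the 14, where a sign rests on few fragments. In bulk RNA, fewer cells of a type and less RNA per cell cannot be told apart.

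In the limma fit that keeps the table as a block, 0 of the 34 members passed an adjusted p of 0.05, and 0.00945% of all tested genes did (1 gene). The lowest adjusted p of a member was 0.111. At an unadjusted p under 0.05 there were 21 members on the lower side, where 11.2% of all tested genes were, and 2 on the higher side, where 9.21% were. Only 1 residual degree of freedom was left in this fit. It holds how far the differences of the first and second tables disagree, and limma moderates it with a prior of 2.35 degrees of freedom drawn from all tested genes. With no block, 3 members passed (Ifi203, Irgm1 and Ifitm2), and 1.45% of all tested genes (153). Fits without MSC KO 1 or without MSC KO 2 take the lone library to vary like WT, and there 20 and 26 members passed, with 21.6% (2286) and 25.2% (2665) of all tested genes. Differences below carry their standard error from limma, are smaller than the fold of weakly expressed genes, and are given as values, since no member passed.

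**Figure D1:**
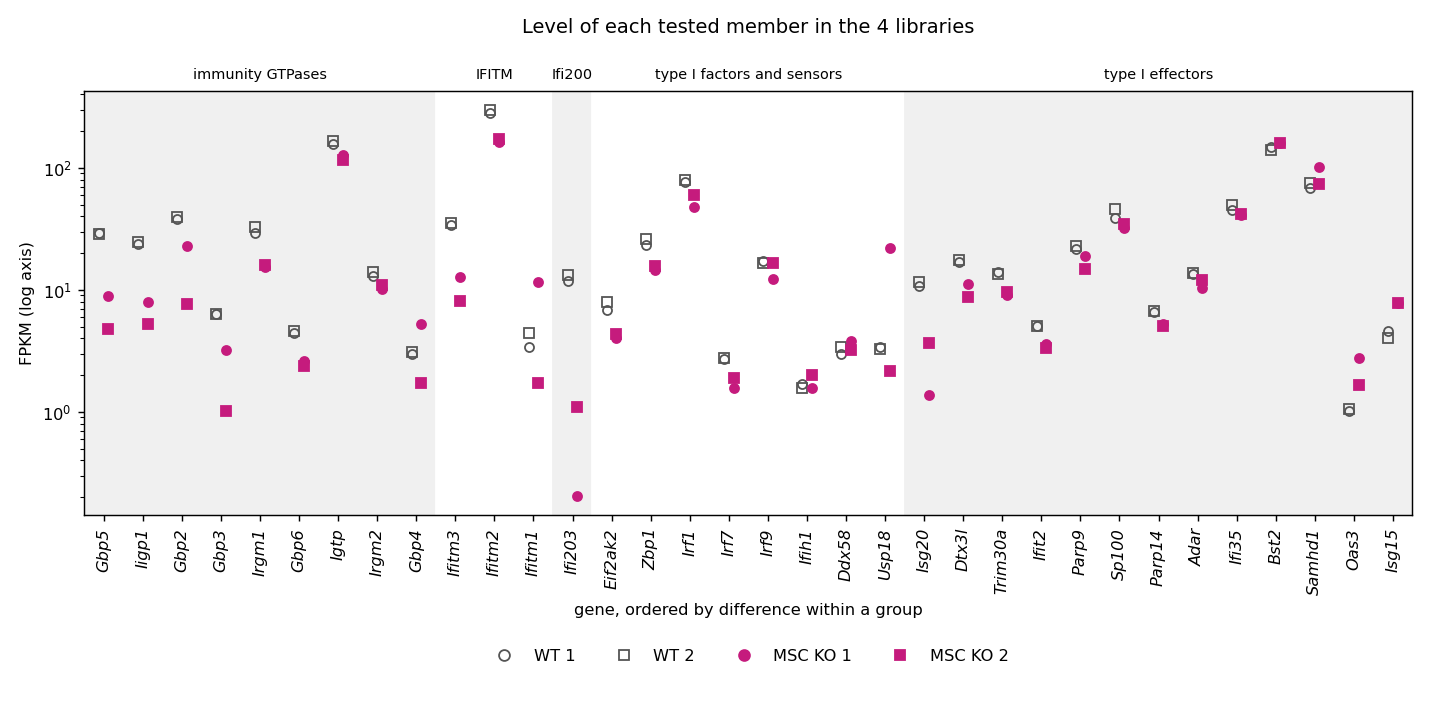
FPKM (log axis) of the 34 tested members in each of the 4 libraries (open grey WT, filled magenta MSC KO, circles replicate 1, squares replicate 2), by group. Both MSC KO-labelled symbols lie below both WT symbols in 24 genes, as in 32.5% of all tested genes. The MSC KO-labelled symbols stand far apart in Gbp2, Gbp3, Gbp4, Ifitm1 and Usp18 (MSC KO 1 higher). They also do in Ifi203 and Isg20 (MSC KO 2 higher).

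The immunity GTPases lay lower as a group than the other large groups. Of 9 tested, 8 were lower in both tables and 0 higher, and their median difference was -0.93 (-0.72 and -0.98 in the first and second tables). The type I factors and sensors had a median of -0.34 and the type I effectors of -0.32. Whether the groups differ was not tested. Summed over the 9 GTPases, the level was 304 and 318 FPKM in WT 1 and WT 2 and 203 and 164 FPKM in MSC KO 1 and MSC KO 2.

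Among the GBPs, Gbp5, which promotes inflammasome assembly, was at 29.3 and 28.9 FPKM in the WT libraries, against 8.88 and 4.76 FPKM in MSC KO-labelled cells (-2.0 ± 0.22, adjusted p = 0.121). Both MSC KO-labelled libraries lay far below WT, at 30.3% and 16.5% of the WT library in the same table. Gbp2, a GBP that gathers on pathogen vacuoles, was at 38.2 and 39.2 FPKM against 22.8 and 7.65 FPKM (-1.47 ± 0.42, adjusted p = 0.215), with MSC KO 2 1.46 below MSC KO 1 on the log2 scale. Without MSC KO 2 the difference of Gbp2 was -0.74, and without MSC KO 1 it was -2.2. Gbp3 had the same shape at a lower level, with 6.34 and 6.31 FPKM in WT against 3.24 and 1.01 FPKM in MSC KO-labelled cells (-1.33 ± 0.31, adjusted p = 0.187), and its difference was -0.79 without MSC KO 2 and -1.87 without MSC KO 1. These 3 genes lie within 141.1 kb on chromosome 3 (mm9, 142159897 to 142300972).

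The GBPs of a second locus, on chromosome 5 (mm9, 105544785 to 105722718), stood closer to WT. Gbp6 was at 4.46 and 4.59 FPKM in WT and at 2.63 and 2.36 FPKM in MSC KO-labelled cells (-0.66 ± 0.12, adjusted p = 0.153). Gbp4 was the 1 tested GTPase with opposite signs, at 3 and 3.12 FPKM in WT against 5.21 and 1.71 FPKM in MSC KO 1 and MSC KO 2. GBPs are similar in sequence, and how reads shared by such copies were assigned is not given in the sources used here, so the split between single GBPs is uncertain.

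Iigp1 (also Irga6), an effector IRG that loads onto parasite vacuoles, was at 23.6 and 24.6 FPKM in WT and at 8.01 and 5.23 FPKM in MSC KO-labelled cells (-1.74 ± 0.18, adjusted p = 0.121). Irgm1, Igtp and Irgm2 are regulatory IRGs, which sit on the membranes of the cell itself and hold the effectors inactive there. They differed by less than Iigp1, the only effector IRG tested as a member, so no difference between the classes can be drawn. Tgtp2, an IRG outside the set, differed by -0.85, near Irgm1 on the log2(FPKM + 1) scale, and stood at 40.3% and 41.3% of WT. Irgm1 was at 29.1 and 32.7 FPKM against 15.3 and 16.1 FPKM (-0.93 ± 0.09, adjusted p = 0.121), about the same share of WT in both tables (52.4% and 49.3%). Igtp, the most abundant tested GTPase, was at 157 and 165 FPKM against 127 and 115 FPKM (-0.41 ± 0.1, adjusted p = 0.195). Irgm2, its neighbour, was at 12.9 and 14.1 FPKM against 10.1 and 10.9 FPKM (-0.33 ± 0.09, adjusted p = 0.2). Ifi47 (Irgd) had no row of its own. The row that joins it with the olfactory receptor gene Olfr56 stood at 126 and 116 FPKM in WT and at 59.1 and 65 FPKM in MSC KO-labelled cells, and was not tested as a member.

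The IFITM genes encode small membrane proteins that hinder the entry of enveloped viruses, and all 3 lie within 55.9 kb on chromosome 7 (mm9, 148140737 to 148196643), yet did not share a direction. Ifitm2, the most abundant tested member of the whole set, was at 281 and 296 FPKM in WT and at 162 and 173 FPKM in MSC KO-labelled cells (-0.78 ± 0.08, adjusted p = 0.121). Ifitm3, known for its action in late endosomes, was at 33.9 and 35.1 FPKM against 12.8 and 8.16 FPKM (-1.66 ± 0.2, adjusted p = 0.13). In both genes the 2 MSC KO-labelled libraries lay below both WT libraries, as in 32.5% of all tested genes. Ifitm1, found more at the cell surface, was at 3.37 and 4.4 FPKM in WT against 11.7 and 1.71 FPKM in MSC KO 1 and MSC KO 2 (0.27 ± 0.7, adjusted p = 0.856). It was the highest of the 4 libraries in MSC KO 1 and the lowest in MSC KO 2, and without MSC KO 1 its difference was -0.84.

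Ifi203, the only Ifi200 gene that was tested, had the largest difference of all tested members. It encodes a nuclear protein of the PYHIN family, whose members bind DNA. It was at 11.9 and 13.3 FPKM in WT and at 0.204 and 1.09 FPKM in MSC KO-labelled cells (-3.1 ± 0.21, adjusted p = 0.111), which is 1.72% and 8.15% of WT. The library values stand for about 1209.7 and 1867.6 fragments in WT and 21.7 and 142.4 in MSC KO-labelled cells, if all came from its longest transcript of 3754 bases. Ifi204 and Ifi205, in the same 284.5 kb of chromosome 1 (mm9, 175677424 to 175961886), were at no more than 0.081 FPKM in any library. Among other Ifi200 genes, Mndal was at 15.4 and 17.9 FPKM in WT and at 0.455 and 4.6 FPKM in MSC KO-labelled cells (-2.62 ± 0.48, adjusted p = 0.153). Aim2, the cytosolic DNA sensor of the same family, was at 8.08 and 8.76 FPKM against 11.6 and 11.5 FPKM (0.42 ± 0.09, adjusted p = 0.179). Ifi200 genes are near-copies of each other, and reads may be split between them.

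**Figure D2:**
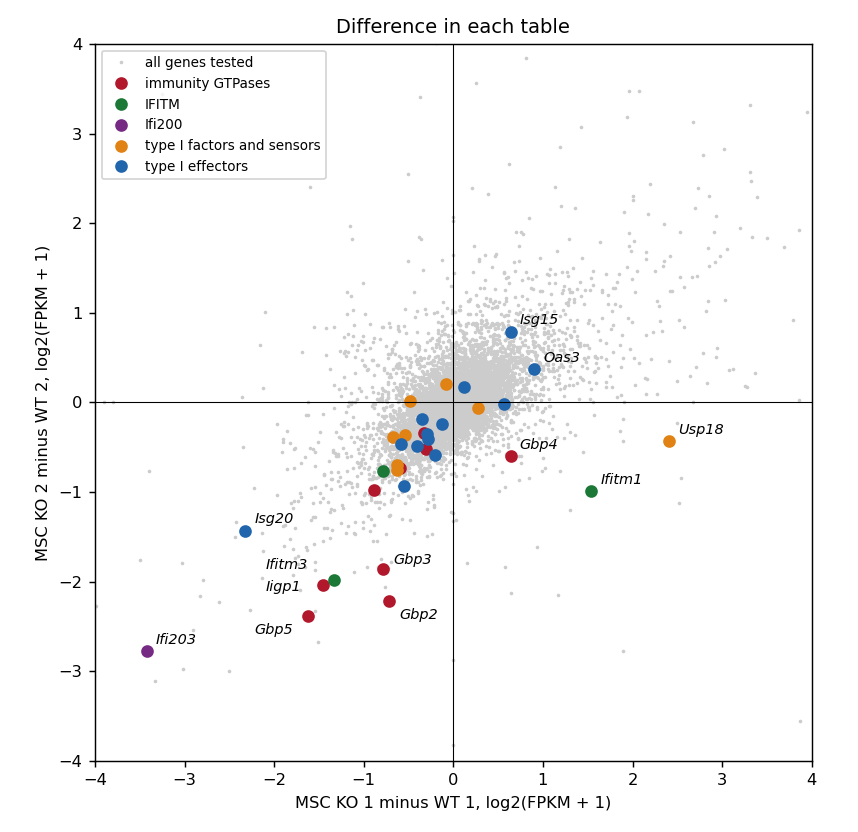
Difference of MSC KO from WT in the first table (x axis) and the second table (y axis), both log2(FPKM + 1), for all tested genes (grey) and the tested members (coloured by group), with 88 genes beyond the axis limit of 4. Ifi203, Gbp5, Iigp1, Ifitm3 and Isg20 stand at the lower left, and Usp18, Ifitm1 and Gbp4 lie above WT in the first table and below it in the second.

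At least 2-fold lower in both tables, on the log2(FPKM + 1) scale, were 5 members: Ifi203, Gbp5, Iigp1, Isg20 and Ifitm3. Of all tested genes, 0.812% were, and 1.32% were at least 2-fold higher in both, which no member was. The authors' deposited table of MSC KO 2 against WT 2 calls 4 of the tested members lower: Gbp2, Gbp5 and Ifi203 with q = 0.0143 each and Iigp1 with q = 0.03. Of all genes that table tests, 0.197% are called lower. The authors' deposited table of MSC KO 1 against WT 1 calls none of these 4, with q = 0.999 for Gbp2, 0.11 for Gbp5, 0.118 for Ifi203 and 0.174 for Iigp1. It calls Rtp4, a chaperone of membrane receptors, with q = 0.0118, where 0.151% of the genes it tests are called lower. Rtp4 was under the filter (mean 0.369 FPKM), and its q in the second table is 0.999. Neither table calls a member higher, where 0.504% and 0.353% of the genes tested in the first and second are called higher. Each of these tests compares 1 library with 1.

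Among the transcription factors of the response, Irf1, which interferon-gamma induces, was at 76.6 and 79.1 FPKM in WT and at 47.8 and 60.1 FPKM in MSC KO-labelled cells (-0.53 ± 0.12, adjusted p = 0.176). Irf7, which amplifies type I interferon genes, was at 2.71 and 2.74 FPKM against 1.56 and 1.91 FPKM (-0.45 ± 0.14, adjusted p = 0.236). In both genes MSC KO 1 was lower than MSC KO 2, the reverse of the order in the GBPs. Irf9, a DNA-binding subunit of the type I interferon complex, was at 17.3 and 16.6 FPKM against 12.2 and 16.6 FPKM (-0.24 ± 0.16, adjusted p = 0.467), so that MSC KO 2 did not stand apart from WT. Its difference was -0.02 without MSC KO 1 and -0.45 without MSC KO 2.

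The sensors did not share a direction. Zbp1, a sensor of Z-form nucleic acids, was at 23.1 and 26.3 FPKM in WT and at 14.6 and 15.8 FPKM in MSC KO-labelled cells (-0.67 ± 0.09, adjusted p = 0.14). Eif2ak2, the double-stranded RNA kinase PKR, was at 6.78 and 7.98 FPKM against 4.01 and 4.31 FPKM (-0.7 ± 0.1, adjusted p = 0.14). The RNA helicase sensors stood near WT with opposite signs in the tables: Ifih1 (MDA5) was at 1.7 and 1.58 FPKM against 1.56 and 1.99 FPKM. Ddx58 (RIG-I) was at 2.98 and 3.4 FPKM against 3.8 and 3.23 FPKM.

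Usp18, the protease that removes ISG15 from proteins and restrains the type I receptor, was a case of 1 library. It was at 3.37 and 3.27 FPKM in WT against 22.2 and 2.17 FPKM in MSC KO 1 and MSC KO 2, a 10.2-fold gap between libraries of 1 label. Across the tested members the WT libraries were at most 0.3 apart on the log2(FPKM + 1) scale, and the MSC KO-labelled ones up to 2.87, with 5 members over 1 log2 unit apart (Usp18, Ifitm1, Gbp2, Gbp4 and Gbp3). In all 5, MSC KO 1 was the higher. As a fold of FPKM, Ifi203 (5.33) and Isg20 (2.68) also stood far apart, with MSC KO 2 the higher. On the log2(FPKM + 1) scale, the median gap of the members was 0.06 in WT and 0.21 in MSC KO-labelled libraries. That of all tested genes was 0.07 and 0.17.

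Of the 13 tested type I effectors, 9 were lower in both tables and 3 higher. Isg20, an exonuclease that degrades RNA, stood out at 10.8 and 11.6 FPKM in WT against 1.37 and 3.67 FPKM in MSC KO-labelled cells (-1.88 ± 0.26, adjusted p = 0.14). Isg15, the ubiquitin-like modifier, went the other way, at 4.64 and 4.04 FPKM against 7.77 and 7.74 FPKM (0.72 ± 0.1, adjusted p = 0.14), with both MSC KO-labelled libraries at nearly the same level. Oas3, a synthetase of the 2-5A signal that activates RNase L, was at 1.01 and 1.06 FPKM against 2.75 and 1.67 FPKM (0.64 ± 0.21, adjusted p = 0.244). Bst2, the virus tether, was abundant and close to WT, at 148 and 141 FPKM against 161 and 159 FPKM (0.14 ± 0.09, adjusted p = 0.426). These 3 were the members higher in both tables, where both MSC KO-labelled libraries also lay above both WT libraries, as in 26.6% of all tested genes.

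Of the other effectors, 8 lay below WT by less, and Samhd1 had opposite signs in the tables. Dtx3l and Parp9 form a complex of a ubiquitin ligase and an ADP-ribosyltransferase relative. Dtx3l was at 16.8 and 17.6 FPKM in WT and at 11.2 and 8.76 FPKM in MSC KO-labelled cells (-0.74 ± 0.14, adjusted p = 0.153). Parp9 was at 21.7 and 22.8 FPKM against 18.8 and 14.8 FPKM (-0.39 ± 0.14, adjusted p = 0.256). The tables list both at 1 locus on chromosome 16 (mm9, 35926600 to 35972691), so their reads may not be fully separate. Trim30a, a tripartite-motif protein, was at 14 and 13.6 FPKM against 9 and 9.56 FPKM. Parp14, Sp100, Ifit2, Adar and Ifi35 were lower in both tables with differences of -0.32, -0.34, -0.44, -0.27 and -0.19. Samhd1, which breaks down nucleotides for DNA synthesis, was at 68.9 and 74.5 FPKM in WT against 102 and 73.5 FPKM in MSC KO 1 and MSC KO 2.

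Many classical type I interferon genes were at very low RNA levels in all 4 libraries. Under the filter were 14 members, of which 8 had a mean below 0.1 FPKM: the antiviral dynamin-like GTPase genes Mx1 and Mx2, Oas2, Oasl2, Rsad2 (viperin), Ifi44, Ifi204 and Ifi205. Oas1a reached 0.502 FPKM in MSC KO 1 and Oasl1 0.811 FPKM in MSC KO 2. Closest below the filter were Ifit1, at 0.82 and 0.792 FPKM in WT against 0.984 and 0.826 FPKM in MSC KO-labelled cells, and Xaf1, at 1.38 and 1.4 FPKM against 0.204 and 0.395 FPKM. Rtp4 was at 0.814 and 0.644 FPKM in WT, listed at 0 in MSC KO 1 and at 0.0179 FPKM in MSC KO 2. Ifit3 was at 0.621 and 0.5 FPKM against 0.319 and 0.126 FPKM. Closest above the filter were Oas3 (mean 1.62 FPKM) and Ifih1 (mean 1.71 FPKM).

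The rest of the pathway was followed in 85 further genes, of which 62 were tested. Lower in both tables were 34 and higher 19 (54.8% and 30.6%, against 37.5% and 31.2% of all tested genes), and 0 passed an adjusted p of 0.05 by limma. At an unadjusted p under 0.05 there were 21 lower and 9 higher (33.9% and 14.5%, against 11.2% and 9.21% of all tested genes). Gbp7 and Tlr7 passed the filter only through WT, and Slfn5 only through the MSC KO-labelled libraries, so their difference was partly set by the filter. Of the ligands, Ifng was at 50 and 51.6 FPKM in WT and at 33.7 and 42.1 FPKM in MSC KO-labelled cells (-0.42 ± 0.12, adjusted p = 0.209), and the listed type I ligand genes (Ifnb1, Ifna4, Ifnk and Ifne) reached at most 0.179 FPKM. The chains of the interferon-gamma receptor had opposite signs. Ifngr1, the ligand-binding chain, was at 57 and 60.6 FPKM against 30.3 and 22.8 FPKM (-1.13 ± 0.16, adjusted p = 0.14), and Ifngr2 at 17.9 and 15.8 FPKM against 26.6 and 22.2 FPKM (0.51 ± 0.09, adjusted p = 0.153). The type I receptor chain gene Ifnar1 differed by -0.08 and Ifnar2 by -0.36.

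Among the kinases, Jak2, which works at the interferon-gamma receptor, was at 25.4 and 26.5 FPKM in WT and at 63.3 and 34.1 FPKM in MSC KO-labelled cells. Socs3, an inhibitor of cytokine signalling, was at 9.83 and 9.62 FPKM against 80.1 and 38.8 FPKM (2.41 ± 0.29, adjusted p = 0.13). Irf4, an IRF of T cell activation, was at 63.1 and 65.9 FPKM against 166 and 160 FPKM (1.32 ± 0.09, adjusted p = 0.111), and Irf2 at 17.5 and 19.5 FPKM against 12.2 and 15.1 FPKM. Dhx58 (LGP2), a relative of RIG-I, was at 11.4 and 11 FPKM against 5.85 and 3.11 FPKM (-1.2 ± 0.21, adjusted p = 0.153), and Mavs, the adaptor of these sensors, at 19.7 and 20 FPKM against 12.3 and 14.5 FPKM. Smaller differences were those of Irf3 (0.23), the inhibitors Pias1 (-0.29) and Ptpn6 (-0.24), and the RNA sensor Tlr7 (-0.38). Of 6 negative regulators, 4 were higher in both tables, where 31.2% of all tested genes were, and 2 lower (Pias1 and Ptpn6). The higher ones were Socs3, Ptpn2 (0.48), Socs1 (0.24) and Pias4 (0.13).

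Of 4 tested GTPases outside the set, 3 were lower in both tables (Tgtp2, Gbp9 and Gbp7, the last of which passed the filter through WT alone) and Gbp8 was higher. Gbp7, which lies between Gbp5 and Gbp3 on chromosome 3, was at 3.66 and 3.76 FPKM in WT and at 0.598 and 0.3 FPKM in MSC KO-labelled cells (-1.71 ± 0.18, adjusted p = 0.121). Tgtp2, an IRG, was at 3.04 and 3.12 FPKM against 1.22 and 1.29 FPKM (-0.85 ± 0.14, adjusted p = 0.151).

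The interferon-inducible genes of antigen presentation were lower in both tables in 9 of 9 tested, with a median of -0.39. Tap1, which carries peptides into the endoplasmic reticulum, was at 203 and 200 FPKM in WT and at 125 and 142 FPKM in MSC KO-labelled cells (-0.59 ± 0.1, adjusted p = 0.153). The immunoproteasome subunit genes Psmb9 (524 and 554 against 397 and 359 FPKM) and Psmb8 (716 and 729 against 542 and 516 FPKM) lay below WT as well. By contrast, 16 other interferon-stimulated genes had a median of -0.01, with 6 lower and 7 higher in both tables. Slfn2, which keeps T cells quiescent, was at 29.5 and 29.2 FPKM against 52.8 and 44 FPKM. Ifi30, a lysosomal thiol reductase, stood at 69.6 and 76 FPKM against 48.3 and 46.5 FPKM. Slfn5 was at 0.891 and 1 FPKM against 1.82 and 2.03 FPKM.

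**Figure D3:**
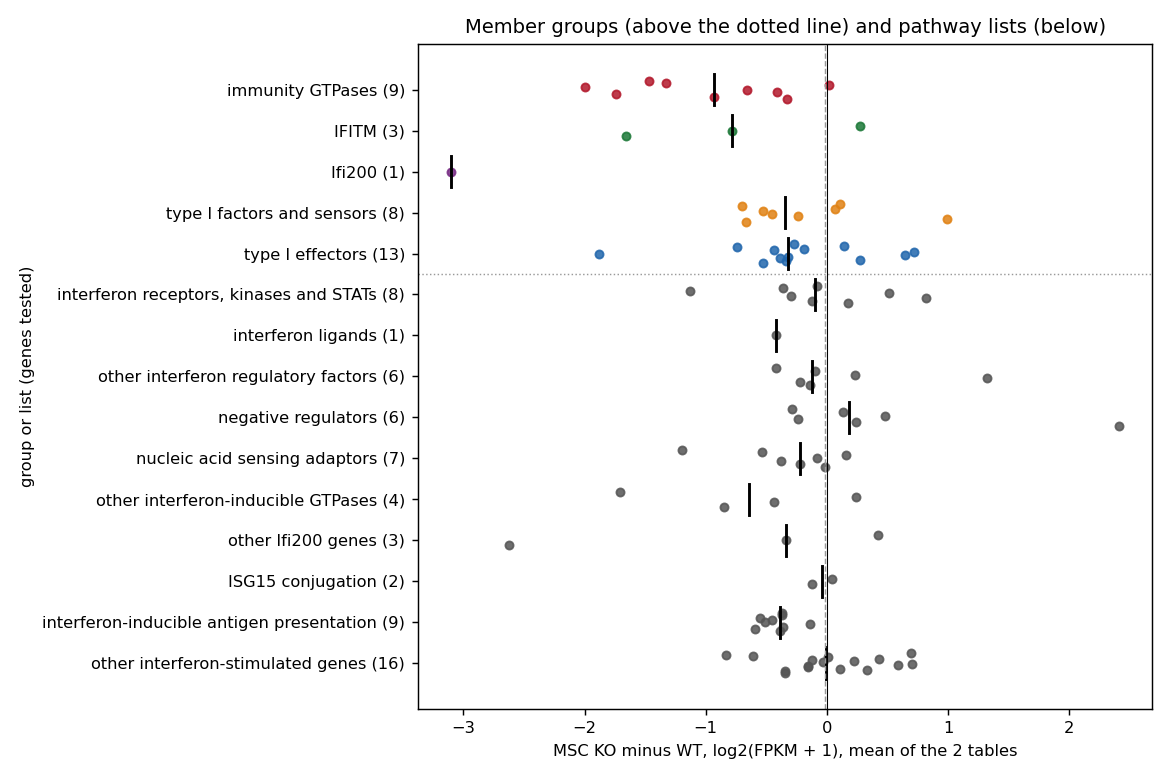
Difference of MSC KO from WT, log2(FPKM + 1), mean of the 2 tables, for each tested gene (points) of the member groups and pathway lists, with the median of each (black bar) and the median of all tested genes (dashed line, -0.02). The immunity GTPases have a median of -0.93, the antigen presentation genes lie between -0.59 and -0.14, and the other interferon-stimulated genes lie on both sides of 0.

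Markers of other cells were measured beside these results. Genes of CD8 T and NK cells (6 of 6 with a row) summed to 304 and 320 FPKM in WT and to 185 and 105 FPKM in MSC KO-labelled cells, most of it Nkg7 (288 and 303 against 173 and 83.7 FPKM), with the NK receptor gene Ncr1 at 0 in every library. Of the CD8 chain genes, Cd8a was at 1.58 and 1.9 FPKM against 0.571 and 0.658 FPKM. Cd8b1, the more abundant, stood at 9.75 and 9.75 FPKM against 8.56 and 19.1 FPKM. Like Gbp2, Gbp3 and Gbp5, this sum was lowest in MSC KO 2, and its part in those differences was not tested. B cell (6 of 6 with a row), myeloid (8 of 8) and plasmacytoid dendritic cell genes (5 of 5, with Klk1 and Cd300c at 0 throughout) summed to 5.16 to 7.44, 3.63 to 4.86 and 0.926 to 1.74 FPKM.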

How the data were processed

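RNA-seq of 4 libraries was deposited by the authors as 2 gene tables, each pairing the WT and MSC KO libraries of 1 number. Reads were aligned to mm9 with TopHat, per the submitters' processing notes, and neither versions nor annotation are given in the sources used here. The unit is not named, and the layout is that of Cuffdiff's gene output, so the deposited values were taken to be FPKM. The authors' tables also give each gene a p-value and a q-value (1 library against 1). Whether the tables were normalized together is not stated.

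Rows were matched by symbol, with the row of the highest mean kept. Rows without a symbol (1925 and 2325) held 49.9% to 54.1% of the summed FPKM and were left out. Also left out were symbols that read as dates (24 per table), 2 symbols with loci apart and 6 with a failed estimate. Rows joining several genes (206 and 219) were kept under their joint names and stood for no listed gene. Symbols in both tables, joint names included, numbered 22121 after this. On the log2(FPKM + 1) scale, genes averaging 1 FPKM or more were tested by limma 3.58.1 in R 4.3.3 (table as block, trended prior, two-sided, Benjamini-Hochberg over 10587 genes). Alternatives were a fit without the block, pseudocounts of 0.1 and 0.5, other filters, scalings and priors, small RNA symbols left out, rows of 1 symbol summed, and each library left out in turn. The procedure was tested on simulated data. Depth was estimated from the steps between low values of genes with 1 GENCODE M21 transcript over 2500 bases and is approximate. Tables were prepared in Python 3.11.15.

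The members, groups, lists and alternatives were chosen with earlier results of these data known. Full values are given for the 12 members ranked first by the smaller of their differences in the 2 tables (same sign in both), for the IFITM and Ifi200 genes, and for Irf1, Irf7 and Irf9. From each pathway list the rule names up to 3 genes by the same measure. Others that are named were chosen after their values were seen. Table coordinates are mm9 as deposited, and promoter windows are GRCm38.p6. One gene of the pathway lists is not reported here.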

Additional observations from a re-analysis of the deposited data

How the results depend on the processing

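The counts of members lower in both tables (24 of 34) and of GTPases lower in both (8 of 9) were 20 to 33 and 6 to 9 under the alternatives. The low ends and the 33 follow the number tested. They were 20 of 26 members and 6 of 6 GTPases at a mean of at least 5 FPKM, and 33 of 48 members with no filter. Other pseudocounts, small RNA symbols left out and rows of 1 symbol summed could not change these counts. With a library left out, or with no block, lower meant every remaining MSC KO library below every remaining WT library, and higher the reverse. The 24 lower and 3 higher members already met this, so these counts could not fall and are no check of them. Leaving out each library in turn gave 24 to 27 lower members, 8 to 9 lower GTPases and 3 to 8 higher members (5 without WT 2 and 8 without MSC KO 2). Higher members were 7 with no filter on low values. Calls depended on the fit. With no replicate block 3 members and 153 of all genes passed, against 0 and 1 with it. The pairing rests on the tables, as the labels give only a shared number, and across genes WT 1 minus WT 2 and MSC KO 1 minus MSC KO 2 had a Pearson r of 0.059. All genes called were 0 with no filter, quantile normalization or a prior without trend, 3 at a mean of at least 5 FPKM, 7 with libraries rescaled to the same sum and 18 with small RNA symbols left out. Leaving out 1 library gave 0 to 2665 called genes and 0 to 26 called members (0 without WT 1 or WT 2, 20 without MSC KO 1, 26 without MSC KO 2), since the lone MSC KO library was then taken to vary like the WT pair. Ifitm1 was at -0.84 without MSC KO 1 and at 1.39 without MSC KO 2. The other 15 members given in full kept their sign in every alternative, and 3 of them (Gbp2, Gbp3 and Irf9) moved by over 1.5 times, each when an MSC KO library was left out. Below about 1 FPKM few fragments stand behind a value, and depth is only estimated.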
